A study of Mus musculus with 1037 samples.

Results

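The peroxisome proliferator-activated receptors (PPARs) and a set of genes known as their fatty acid targets were followed in single cells of the mouse hair follicle. The set held 8 genes out of 55335 in the table: the receptor genes Ppara, Ppard and Pparg, and Angptl4, Plin2, Pdk4, Cpt1a and Acadvl. Members were the table's rows whose Ensembl identifier maps to one of these symbols, and each symbol had exactly 1 row. The genes were chosen with earlier results of these data in view, the ratios of catagen to anagen outer root sheath (ORS) cells, so they were in part selected on those ratios. Their differences between those stages are therefore given as a description, with no test.

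Cells were wild-type hair follicle epithelial cells from skin, sorted by flow cytometry and measured one at a time by Smart-seq2, a plate method that reads full-length transcripts. Late anagen, the growth phase, is labelled AnaVI and was sorted into lower (LOS), middle (MOS) and upper (UOS) outer root sheath. Late catagen, the regression phase, was sampled from the upper ORS at 2 stages. CatVI cells were sorted at postnatal day 17 onto plates whose titles name hair follicle stem cells (HFSCs) as Phago or NonPhago and as alive or apop, and CatVII cells came as an alive sort (OSalive) and an apop sort (OSapop).

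Cells with 2000 or more detected genes were counted, 463 of the 1036 with counts: 39 LOS, 38 MOS, 83.6% of the UOS cells, 19 and 9 on the Phago alive plates 1 and 2, 15 on the Phago apop plate 5, 14 on the NonPhago apop plate 6, 80.1% of the OSalive cells and 92 OSapop. NonPhago alive plates 3 and 4 gave 0 of 67 and 0 of 57 cells, which allows shares passing of up to 5.36% and 6.27% (exact Clopper-Pearson limits), and are not described further. Cells of 3 to 6 mice were pooled at each stage before the sort and no animal is named, so each sort or plate is 1 sample, and sorts of the same stage can hold cells of the same mice. No p-value or standard error was derived from cells. The intervals below are 95% limits that cover counting error only. Stage, sort and library batch cannot be told apart, and in a summed count a change in the share of cells with the RNA and a change in RNA per cell cannot be told apart either, which is why shares of cells are given beside the levels.

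PPARs are nuclear receptors that bind DNA as partners of the retinoid X receptors and are activated by fatty acids and their derivatives. PPARα and PPARδ are best known for switching on fatty acid uptake, transport into mitochondria and oxidation, and PPARγ for driving lipid storage in adipocytes and sebocytes, the lipid-secreting cells of the sebaceous gland that adjoins the upper follicle. Angptl4, Plin2, Pdk4 and Cpt1a are standard readouts of PPAR activation in many tissues, although hypoxia and glucocorticoids also raise some of them.

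Angptl4 encodes a secreted inhibitor of lipoprotein lipase, the enzyme that frees fatty acids from circulating triglyceride (ENSMUSG00000002289.16; GRCm39 chromosome 17, 33992724 to 34000804, minus strand). PPAR-retinoid X receptor dimers recognise a direct repeat of the hexamer AGGTCA with 1 base between the copies. The motif AGGTCANAGGTCA was searched on both strands in a window of 10000 bases, from 2000 before to 8000 after the start of the canonical transcript of each protein-coding gene. It lay in 1.99% of 21598 windows and in 0 of the 8 members' windows. Allowing 1 free letter in either copy (AGGNCANAGGTCA or AGGTCANAGGNCA, which include the exact motif) raised the share to 11% of windows, and to 2 of the 8 members, Angptl4 with 2 matches and Cpt1a with 1. They are shown because they are the members' only matches to these motifs, in which no position but the fourth of each hexamer was freed, with the motif in capitals and 8 flanking bases on each side, read 5′ to 3′ on the strand of the match:

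Angptl4, exon 7 in the 3′ UTR, chr17:33993378-33993390, minus strand: cacccaaaAGGTCAAAGGACAgaacagat
Angptl4, intron 6, chr17:33994749-33994761, plus strand: gggtatgaAGGTCAGAGGACAgcttgtgg
Cpt1a, intron 1, chr19:3380485-3380497, plus strand: ctgtggggAGGTCAGAGGACAgtttgtgg

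All 3 matches carry AGGACA as their second hexamer. The coordinates are those of GRCm39 and mark the motif without its flanks. A match describes these letters only. Binding was not measured in these cells.

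Before the members are described, the labels were checked against cell type markers. All 12 ORS and bulge markers were counted, with a summed level of 1362 to 6840 CPM (counts per 1000000 gene counts) in the 9 sorts and plates, and Krt5 or Krt14, the basal keratins of the ORS, had a count in every LOS, MOS, UOS, plate 5, plate 6, OSalive and OSapop cell, in 17 of 19 cells of plate 1 and in 8 of 9 of plate 2. LOS stood apart with 1683 CPM of fibroblast and dermal papilla, 100.6 CPM of endothelial and 84.4 CPM of adipocyte markers, of which Fabp4 gave 72.3 CPM and Adipoq 0.0933 CPM. The highest level of those lists in any other sort was 520, 59.99 and 10.96 CPM. Plate 1 held the 59.99 CPM of endothelial markers, and plate 2 held 256.6 CPM of sebocyte markers, most of it Krt79. Melanocyte markers reached 160.4 CPM in LOS and 190.3 CPM on plate 2. Immune markers lay between 0 and 37.9 CPM, with Cd207 at 0 throughout. UOS had the most of the differentiated epidermis and inner root sheath markers, 939.9 CPM, of which the inner root sheath keratins Krt71 and Krt25 gave 432.1 and 159.3 CPM, against 356.2 CPM in LOS, 67.5 CPM in MOS and 64.6 CPM in OSalive. In OSalive 8 of these 9 genes were 2-fold or more lower than in UOS. Levels were therefore also taken in the 77.1% of cells that had a count of Krt5 or Krt14 and none of Pecam1, Cdh5, Ptprc, Pdgfra, Adipoq, Dct or Pmel, a choice made after seeing the data. These are called keratin cells below. That filter uses no inner root sheath or sebocyte marker, so levels were also taken, again after seeing the data, in the keratin cells with no count of Krt25, Krt27, Krt71 or Tchh, genes that 32 UOS cells (28.6%) and 14 OSalive cells (11.2%) had.

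Angptl4 was the member with the widest range. Its level was 47.1 CPM in LOS (95% limits 43.1 to 51.4), 106.4 CPM in MOS (99.6 to 113.5) and 45.9 CPM in UOS (44.3 to 47.5). On the CatVI plates it was 68.4 CPM on Phago alive plate 1 (61.6 to 75.7), 21.6 CPM on Phago alive plate 2 (16.01 to 28.6), 5.43 CPM on NonPhago apop plate 6 (2.61 to 9.99) and 0 on Phago apop plate 5 (0 to 0.821). The CatVII sorts held 1.71 CPM in OSalive (1.56 to 1.86) and 2.53 CPM in OSapop (2.18 to 2.92). The 3 AnaVI sorts and plate 1 were thus high, plate 2 lay between, and both apop plates and both CatVII sorts were low, with no overlap between the AnaVI and CatVII limits. By counting error alone, LOS and UOS were the only neighbours in the order of levels whose interval held 0 (log2 ratio 0.04, -0.10 to 0.17). Counting error leaves out the spread between cells. The counts of OSalive, OSapop, plate 2 and plate 6 came from 13, 11, 2 and 4 cells, so the order among the low samples is not settled.

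The Angptl4 difference between AnaVI and CatVII lay in how many cells had the RNA, and the cells with a count also had lower levels in CatVII. A count was found in 34 of 39 LOS cells (87.2%, Clopper-Pearson 72.6 to 95.7%), 29 of 38 MOS cells (76.3%, 59.8 to 88.6%) and 80 UOS cells (71.4%, 62.1 to 79.6%). On the plates it was found in 9 of 19 (47.4%, 24.4 to 71.1%), 2 of 9, 0 of 15, and 4 of 14 cells of plates 1, 2, 5 and 6. In OSalive 13 cells (10.4%, 5.65 to 17.1%) and in OSapop 11 of 92 (11.96%, 6.12 to 20.4%) had a count, although the median OSalive cell was the deepest at 2182588 gene counts against 471277 in UOS. Some OSalive and OSapop well names were used by 2 cells, and these limits take such cells as distinct, which is not shown. With each cell thinned to 50000 gene counts, which removes the difference in depth, the shares were 73.9% of 23 LOS, 78.1% of 32 MOS and 7.06% of 85 OSapop cells, and 56.8% of UOS and 5.65% of OSalive cells with 1 shallower cell left out of each. Per cell, the median CPM was 48.3 in LOS, 65.4 in MOS and 18.9 in UOS, and 0 in the CatVI plates and both CatVII sorts. The highest cell reached 380 CPM in UOS and 51.6 CPM in OSalive. Among cells with a count, the median was 69.9 CPM in LOS, 96.6 in MOS and 36.8 in UOS, against 13.3 in OSalive and 11.03 in OSapop. On plates 1, 2 and 6 it was 101.5, 37.6 and 31.8 CPM, so a lower level per positive cell was not a trait of all catagen samples. Deeper cells can show lower levels, so these medians also depend on depth.

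**Figure D1:**
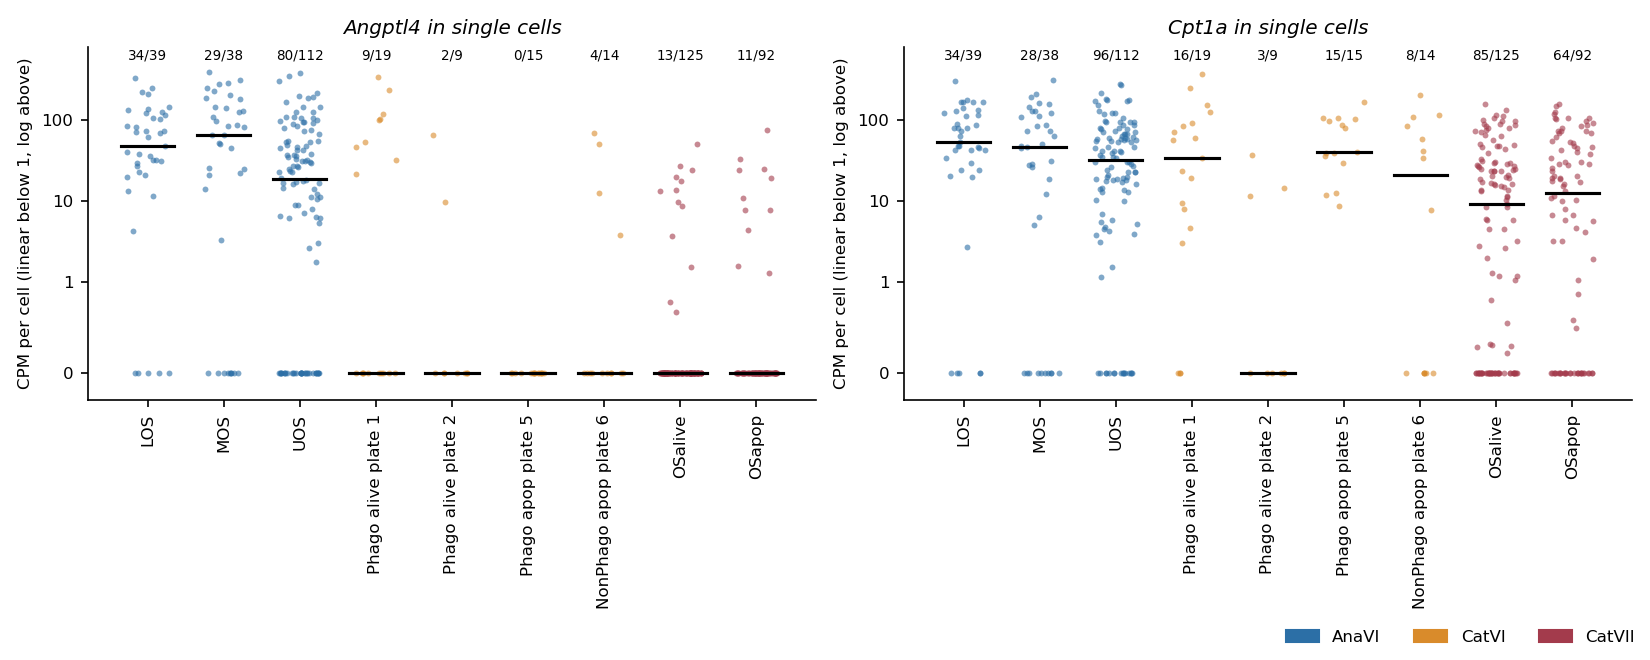
CPM per cell (linear below 1, logarithmic above) of Angptl4 and Cpt1a in each sort or plate, coloured by stage, with the median as a black line and the number of cells with a count over all cells above. Most AnaVI cells hold Angptl4 while 13 OSalive cells (10.4%) do, and Cpt1a is found in 85 OSalive cells (68%) and in all 15 plate 5 cells.

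On the CatVI Phago alive plates the Angptl4 level rested on few cells, since 1 cell held 43.2% of the plate 1 counts and another 95.9% of the plate 2 counts. In keratin cells plate 1 kept 54.8 CPM, in 4 of 10 cells, whereas plate 2 had 0 in 5 cells. AnaVI keratin cells held 40.3 CPM in LOS, 110.2 CPM in MOS and 56.3 CPM in UOS, and CatVII keratin cells 1.396 CPM in OSalive and 2.76 CPM in OSapop. Keratin cells without an inner root sheath marker held 91.2 CPM in LOS, 118.95 CPM in MOS and 55.04 CPM in UOS, against 1.54 CPM in OSalive and 3.21 CPM in OSapop. The ratio of OSalive to UOS was -5.33 in the keratin cells and -5.16 without the inner root sheath markers, against -4.75 in all cells. Other differentiated cell and sebocyte markers were not used to leave out cells, and their part was not tested.

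**Figure D2:**
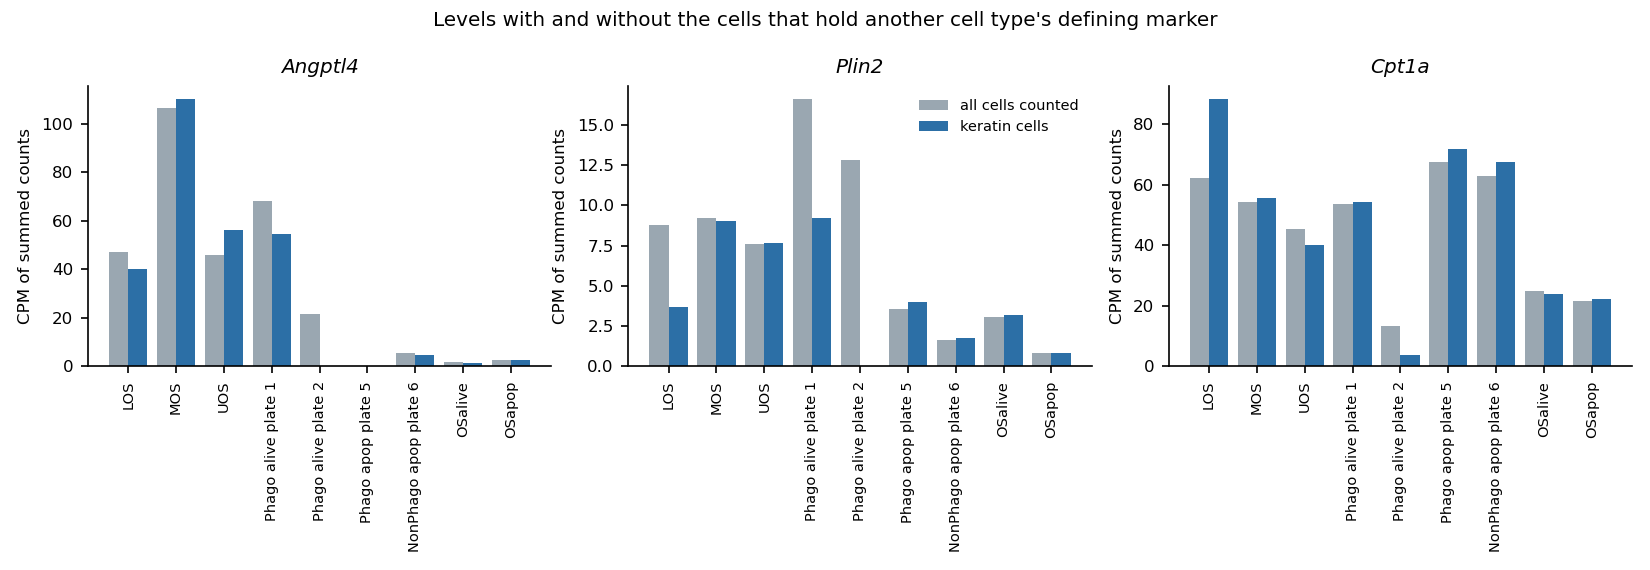
Level in CPM (bars from 0) of Angptl4, Plin2 and Cpt1a in each sort or plate, in all cells counted (grey) and in the keratin cells without the endothelial, immune, fibroblast, adipocyte or melanocyte markers named (blue). Angptl4 stays at 40.3 to 110.2 CPM in AnaVI and at 1.396 to 2.76 CPM in CatVII, while the Plin2 level of Phago alive plate 2 goes from 12.8 CPM to 0.

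The receptors differed in level and in pattern. Ppard, the receptor PPARδ (ENSMUSG00000002250.16; chromosome 17, 28451674 to 28520448), was found in more cells than the other receptors. Its level was 10.3 CPM in LOS, 9.71 in MOS and 7.40 in UOS, then 3.46, 1.32, 3.78 and 5.98 CPM on plates 1, 2, 5 and 6, and 9.04 CPM in OSalive and 13.2 CPM in OSapop. The ranges of the AnaVI and CatVII sorts overlapped, with OSapop highest, and the plates had lower CPM than both. The place of the plates below UOS depended on the scaling, as given below. Plate 6 (95% limits 2.98 to 10.7 CPM) could not be told apart from UOS, and 10 of its 11 counts came from 1 cell. A count was present in 48.7% of LOS, 52.6% of MOS, 45.5% of UOS, 49.6% of OSalive and 51.1% of OSapop cells, and after thinning in 24.3% of UOS and 24.2% of OSalive cells.

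Ppara (ENSMUSG00000022383.13; chromosome 15, 85618656 to 85687067) was sparse. UOS held 1.10 CPM in 8 cells (7.14%), LOS 1.96 CPM in 3 of 39, and MOS 0 in 38 cells, which allows a level of up to 0.432 CPM. OSalive held 1.124 CPM (1.005 to 1.25) in 12 cells (9.6%) and OSapop 6.82 CPM (6.23 to 7.44) in 13 of 92. Plate 1 had the highest level at 10.6 CPM, 47 of its 58 counts from 1 cell, and plates 2, 5 and 6 had 1, 5 and 1 counts. Plate 1 and OSapop were thus the high samples, from 3 and 13 cells.

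Pparg (ENSMUSG00000000440.12; chromosome 6, 115337675 to 115468268) was at or near 0. UOS had 3 counts in 2 cells and OSalive 1 count, and LOS, MOS, plate 5, plate 6 and OSapop had 0. Plates 1 and 2 had 8 counts in 1 cell and 7 counts in 2 cells, or 1.46 and 3.09 CPM. Among the keratin cells only OSalive had a count. The Pparg counts of plates 1 and 2 thus came from cells outside the keratin cells.

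Per kilobase of canonical transcript, the scale on which genes can be compared, the UOS order was Angptl4 at 13.9 CPM per kb, Cpt1a 6.88, Acadvl 5.85, Plin2 3.71, Ppard 2.26, Pdk4 0.755, Ppara 0.309 and Pparg 0.0160. OSalive had Cpt1a first at 3.77 CPM per kb, then Ppard 2.76, Acadvl 1.87, Plin2 1.48, Angptl4 0.515 and Ppara 0.317, with Pdk4 at 0. Angptl4 went from the first to the fifth place between these sorts.

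Among the fatty acid targets, Plin2, which coats lipid droplets (ENSMUSG00000028494.12; chromosome 4, 86565912 to 86588459, minus strand), had 8.77 CPM in LOS, 9.25 in MOS and 7.61 in UOS. Plates 1 and 2 had 16.6 and 12.8 CPM, plates 5 and 6 had 3.56 and 1.63 CPM, and CatVII had 3.03 CPM in OSalive and 0.808 CPM in OSapop. The alive plates were thus the highest samples and OSapop the lowest, and in the order of levels the alive plates and the AnaVI sorts could not be told apart from their neighbours, up to the step from UOS to plate 5. A count was present in 44 UOS (39.3%), 25 OSalive (20%) and 14 OSapop (15.2%) cells. In keratin cells plate 1 had 9.24 CPM, plate 2 had 0, UOS 7.69 CPM and OSalive 3.16 CPM.

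Pdk4, a kinase that switches off pyruvate dehydrogenase and so spares glucose when fatty acids are burned (ENSMUSG00000019577.6; chromosome 6, 5483097 to 5496339, minus strand), was found in AnaVI at 1.68 CPM in LOS, 4.68 in MOS and 2.84 in UOS. Plates 1 and 2 had 5 counts in 1 cell and 1 count in 1 cell. Plates 5 and 6, OSalive and OSapop had 0. In OSalive, with 287377663 gene counts, a count of 0 allows a level of up to 0.0128 CPM. The RNA was uncommon in AnaVI too, in 6 of 39 LOS, 6 of 38 MOS and 16 UOS cells (14.3%), and 26 of these 28 cells also had an Angptl4 count, beside 75.7% of all AnaVI cells. Cells with Angptl4 in UOS had a median of 495673 gene counts and cells without it 430416. In LOS the medians were 103961 with and 268577 without it, and in MOS 141934 and 174877. The shares of cells with both genes also depend on depth, which differed in opposite directions between UOS and the other AnaVI sorts.

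Cpt1a, which joins long-chain fatty acids to carnitine for entry into mitochondria (ENSMUSG00000024900.5; chromosome 19, 3371853 to 3437996), was counted in more cells than any other member over all sorts. It had 62.3 CPM in LOS, 54.4 in MOS, 45.4 in UOS, 53.6 on plate 1, 13.2 on plate 2, 67.4 on plate 5, 63.04 on plate 6, 24.9 in OSalive and 21.7 in OSapop. Plates 5 and 6 were thus the highest and plate 2 the lowest, and both CatVII sorts lay under every AnaVI sort. The RNA was counted in 85.7% of UOS, 68% of OSalive and 69.6% of OSapop cells, and in 15 of 15 plate 5 cells.

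Acadvl, the very long-chain acyl-CoA dehydrogenase of mitochondrial oxidation (ENSMUSG00000018574.14; chromosome 11, 69900853 to 69906270, minus strand), had 18.01 CPM in LOS, 7.84 in MOS and 12.9 in UOS. On plates 1, 2, 5 and 6 it had 3.65, 1.77, 2.89 and 11.4 CPM, and 4.13 CPM in OSalive and 5.15 CPM in OSapop. LOS was highest, and plates 1, 2 and 5 and the CatVII sorts were low. Shares of cells with a count differed less, at 49.1% of UOS and 44% of OSalive cells, but thinned cells gave 28.8% and 12.9%.

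**Figure D3:**
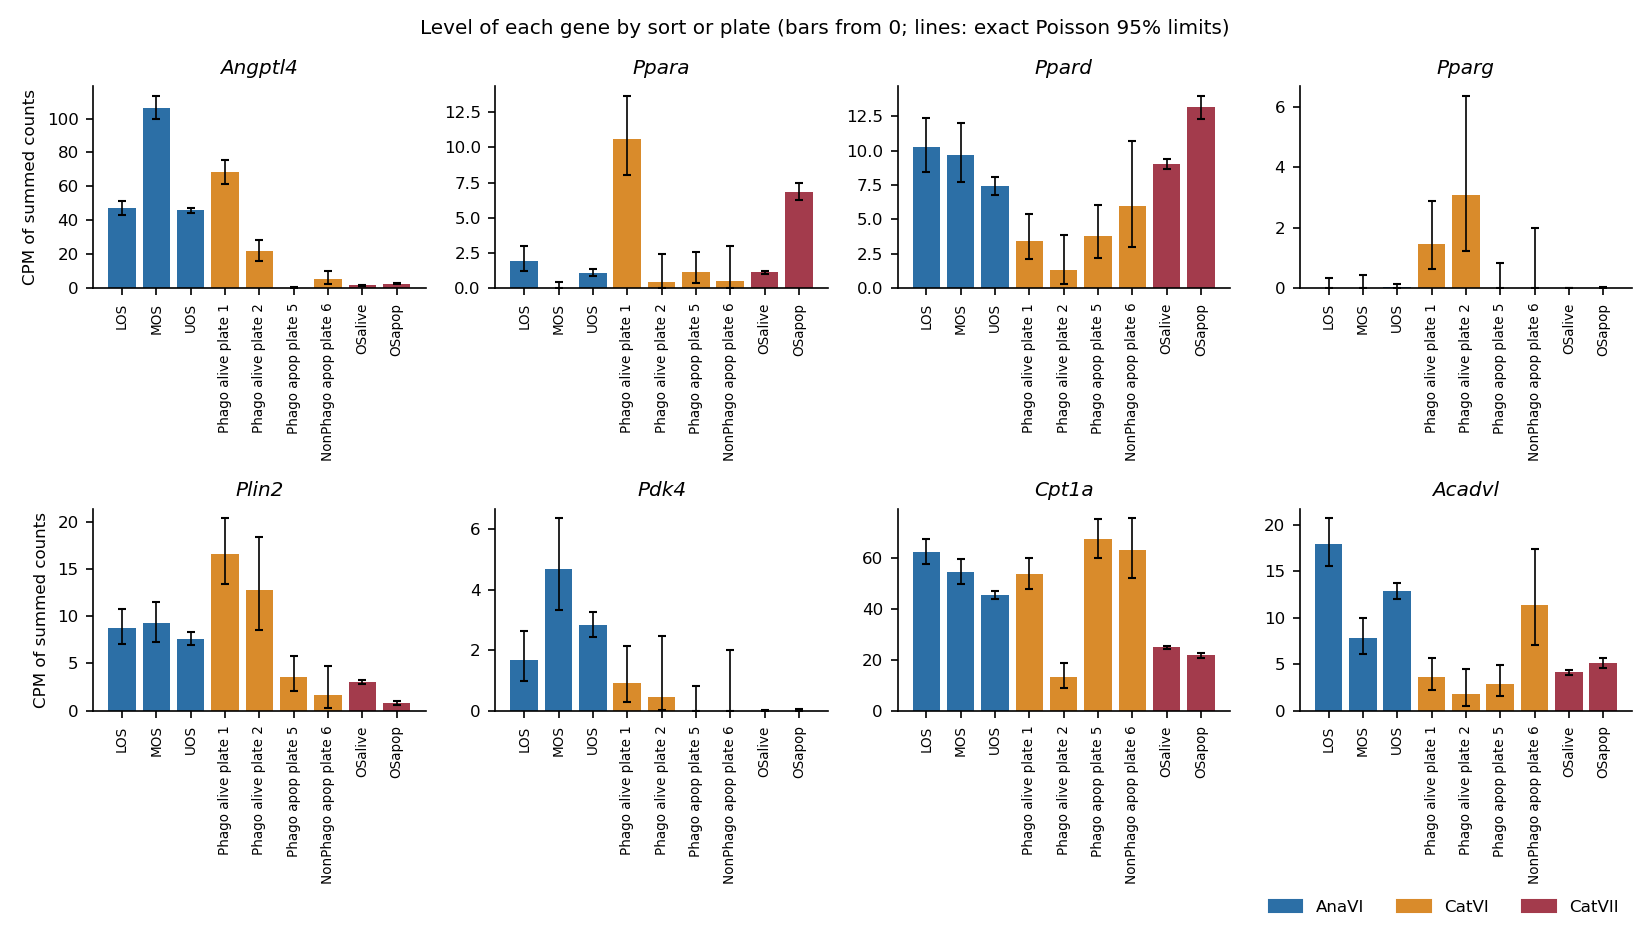
Level of each of the 8 genes in CPM of summed counts (bars from 0, each panel on its own scale) in the 9 sorts and plates, coloured by stage, with exact Poisson 95% limits as lines. Angptl4 and Pdk4 are highest in MOS at 106.4 and 4.68 CPM, Cpt1a is at 67.4 CPM on the Phago apop plate, and Pparg is seen on the Phago alive plates at 1.46 and 3.09 CPM.

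The comparison of OSalive with UOS asked how living upper ORS cells of CatVII differ from those of late anagen. Of the 7 members with at least 100 counts over both, 4 were 2-fold or more lower in OSalive and 0 were higher. Over all 14159 genes with that many counts, 26.6% were 2-fold or more lower and 11.5% higher, with a median log2 ratio of -0.32. As this contrast overlaps with the values that led to the choice of the genes, nothing is read from the count. Angptl4 was 26.9-fold lower (log2 -4.75, -4.89 to -4.61), Acadvl 3.13-fold lower (-1.65, -1.77 to -1.52) and Plin2 2.51-fold lower (-1.33, -1.48 to -1.17). Pdk4 had 0 counts against 2.84 CPM, which is 271.9-fold lower with the 0 set to 3 counts (log2 -8.09, upper 95% limit -7.78). Cpt1a was lower by less (-0.87, -0.93 to -0.81), Ppard differed by 0.29 (0.15 to 0.43) but by -0.05 in keratin cells, -0.20 without inner root sheath markers and -0.10 against MOS, and the Ppara interval held 0 (0.03, -0.33 to 0.42). Plin2 was under 2-fold (-0.73 to -0.98) with 4 of the 5 other scalings and with thinned cells, and Acadvl was with MOS in place of UOS (-0.92). Over all genes the median ratio was -0.70 in the shortest of 4 length classes and -0.20 in the longest. Acadvl (2210 bases) and Plin2 (2050 bases) fell in the second class, with a median of -0.32, and Angptl4 (3308 bases) and Pdk4 (3759 bases) in the next, with -0.24. What transcript length contributes to the ratios was not tested.

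Against the same UOS cells, the CatVI plates summed had 1 of 7 members 2-fold or more higher (background 12.9% of 11497 genes) and 3 lower (24.9%). Ppara was higher by 2.07 (1.57 to 2.57), but with plate 1 left out it was -0.43. Acadvl was lower (-1.65, -2.06 to -1.27), as were Ppard (-1.06, -1.51 to -0.64) and Pdk4 (-2.74, -4.20 to -1.59, from 6 counts). Angptl4 differed by -0.57 (-0.72 to -0.43), and by -2.74 without plate 1, -1.66 in keratin cells and -0.02 without plate 5. Scaled to ERCC spike-ins, RNAs added in equal amount to each well, all CatVI ratios to UOS moved up by 1.27, which made Ppard 0.21, Angptl4 0.69 and Acadvl -0.38. No direction is drawn for Angptl4 or Ppard in CatVI as a whole. Both this comparison and the one before use UOS.

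Within AnaVI, MOS had 1 of 6 members 2-fold or more higher than UOS (background 6.56% of 11114 genes) and 0 lower (23.2%). That member was Angptl4, at 2.32-fold (log2 1.21, 1.11 to 1.32), and at 0.97 in keratin cells, just under 2-fold. Pdk4 differed by 0.72 (0.19 to 1.22), Ppard by 0.39 (0.04 to 0.73, but -0.31 without inner root sheath markers), Cpt1a by 0.26 (0.12 to 0.40) and Acadvl by -0.72 (-1.10 to -0.36), and the Plin2 interval held 0 (0.28, -0.08 to 0.62). LOS against UOS had 0 of 6 members past 2-fold, beside 14.1% of 11473 genes higher and 14.3% lower. Its values ran from -0.76 for Pdk4 (-1.54 to -0.06) to 0.48 for Acadvl (0.25 to 0.71). In LOS 21 of 39 cells had a count of at least 1 of the 7 genes that keratin cells lack, and in its 18 keratin cells 4 members passed 2-fold, Cpt1a higher at 1.14 and Ppard (-1.06), Plin2 (-1.07) and Pdk4 (-1.98) lower. These rest on 337, 17, 14 and 3 LOS counts. Without inner root sheath markers, which left 10 LOS cells, 3 members passed 2-fold, Cpt1a at 1.998, Acadvl at 1.30 and Plin2 at -1.57, while Ppard was at 0.29 and Pdk4 at 0.00. The share over all genes is not given for these cells, so nothing is read from either count of members.

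The apop and alive sorts were compared at both catagen stages. In CatVII, OSapop had 1 of 6 members 2-fold or more higher than OSalive (background 10.6% of 13886 genes) and 1 lower (11.3%). Ppara was 6.06-fold higher (log2 2.6004, 2.40 to 2.81), and came to between 1.54 and 2.91 under the alternatives tried, although the share of cells with a count was 14.1% against 9.6%. Plin2 was 3.76-fold lower (-1.91, -2.32 to -1.53), and as a mean over cells the value was -1.03. Angptl4 (0.57, 0.32 to 0.82, but 1.06 without inner root sheath markers), Ppard (0.54, 0.43 to 0.65), Acadvl (0.32, 0.15 to 0.49) and Cpt1a (-0.19, -0.27 to -0.12) differed by less than 2-fold, and Pdk4 had 0 counts in both.

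In CatVI, the Phago apop plate had 3 members with enough counts against the 2 Phago alive plates summed, of which 0 were 2-fold or more higher (background 10.8% of 5260 genes) and 2 lower (22%). Angptl4 had 0 against 424 counts, 81.99-fold lower with the 0 set to 3 counts (log2 -6.36, upper 95% limit -6.05). Plin2 was 4.35-fold lower (log2 -2.12, -2.97 to -1.36). In keratin cells Angptl4 was -5.85, again with the 0 set to 3 counts, and Plin2 was -0.87, under 2-fold. Cpt1a was higher on the apop plate by 0.69 (0.46 to 0.92). No plate held both sorts, so plate and sort cannot be told apart.

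**Figure D4:**
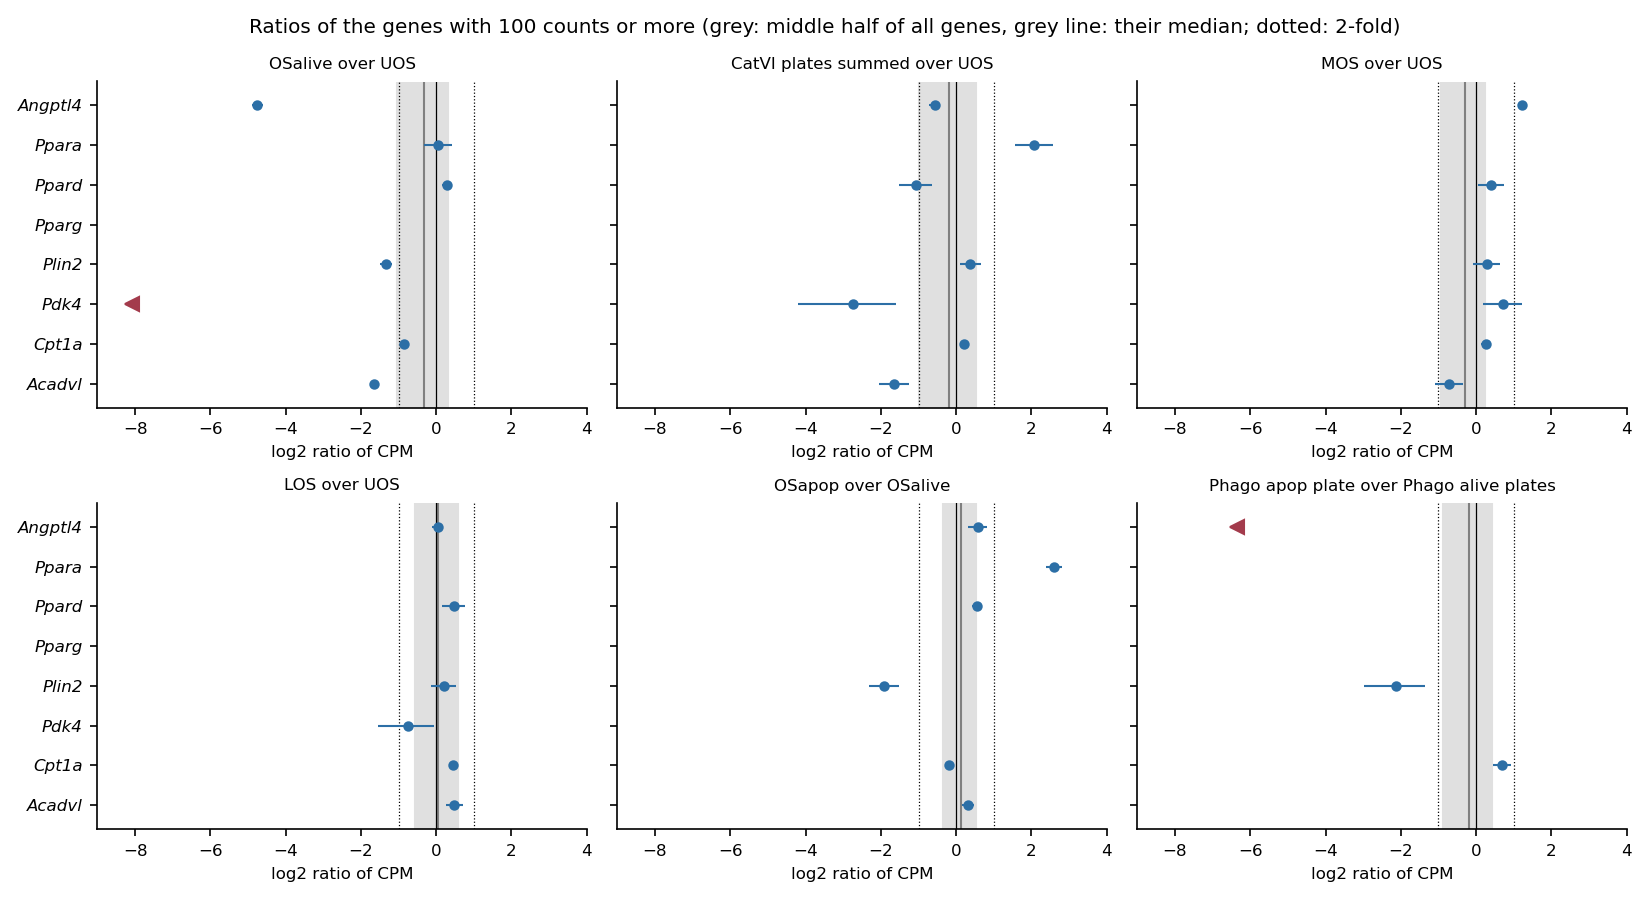
Log2 ratio of CPM (horizontal) of each gene with 100 counts or more in the 6 comparisons, with exact 95% limits (points and lines). Triangles mark a first group with 0 counts, set to 3 counts. The grey band runs from the lower to the upper quartile of all genes, the grey line is their median and dotted lines mark 2-fold. Angptl4 lies at -4.75 in OSalive over UOS and Ppara at 2.6004 in OSapop over OSalive.

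The wider pathway was read from 11 lists of genes, described by counts and medians only. Members are counted in the lists they belong to. These are Cpt1a and Acadvl in mitochondrial oxidation, Plin2 in the lipid droplet list, Angptl4 in its family and Pdk4 among the kinases. Over all genes 26.6% were 2-fold or more lower and 11.5% higher in OSalive than in UOS, and 24.9% lower and 12.9% higher in the CatVI plates, and each list is to be read against these shares. Mitochondrial fatty acid oxidation had 11 of 19 genes 2-fold or more lower in OSalive than in UOS and 0 higher, with a median of -1.23 against -0.32 over all genes. Acadvl (-1.65), chosen with this contrast in view, is 1 of the 11, and Cpt1a (-0.87) is not. Acaa2 and Eci2, which act late in the oxidation cycle and on unsaturated chains, had the largest differences at -3.31 (34.2 CPM in UOS, 3.46 in OSalive) and -3.11 (10.9 and 1.26 CPM). Hadha, a subunit of the trifunctional protein, had the highest level of the list, 141.5 CPM in MOS, and differed by -0.70. In the CatVI plates 10 of 19 were lower and 0 higher, median -1.03. MOS and LOS had 1 and 0 of 19 lower than UOS and as many higher, and OSapop had 1 lower and 1 higher than OSalive. Over all genes the median was lower in the shortest transcripts, at -0.70 for OSalive over UOS and -0.74 for the CatVI plates. What transcript length contributes to the list values was not tested. The other scalings raised every OSalive over UOS ratio by 0.11 to 0.59, and the ERCC scaling raised the CatVI ratios by 1.27. Such shifts keep a list's distance from the all-gene median but can change its counts past 2-fold, which are not given for them.

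The peroxisomal branch had 3 of 11 genes lower and 0 higher in OSalive, near the 26.6% of all genes. Hsd17b4 was at -1.96 and Scp2 at -1.84, while catalase (Cat) was at 0.10 and Acox3 at 0.27. Acox3 was also 2.01 higher in the CatVI plates, from 44.1 CPM on plate 1 against 1.32 on plate 2.

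PPAR partners and cofactors lay near 0, with 2 of 15 higher and 0 lower in OSalive and a median of 0.14. Rxra, the main retinoid X receptor partner in skin, was at 82.3 CPM in OSalive and 85.8 in UOS (-0.06, -0.10 to -0.02). The coactivators Ppargc1a and Ppargc1b were the 2 past 2-fold, at 1.73 (3.06 against 0.922 CPM) and 1.02 (2.70 against 1.33 CPM).

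Among other classical PPAR targets, 6 of 12 were lower and 2 higher in OSalive, with a median of -0.81. Ucp2, a carrier of the inner mitochondrial membrane, was the most abundant at 1327 CPM in LOS, 2504 in MOS and 1023 in UOS. On plates 1, 2, 5 and 6 it had 910, 207.1, 621 and 439 CPM, and OSalive and OSapop had 154.2 and 198.4 CPM. Its log2 ratio of OSalive to UOS was -2.73. Acot1, an acyl-CoA thioesterase, was at -2.49. The targets thus did not share a single pattern.

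Lipid handling genes split in the same way. In the list of fatty acid uptake, binding and activation 5 of 14 were lower and 1 higher in OSalive. Fabp5, the epidermal fatty acid binding protein, had 34.7 CPM in UOS and 0.247 in OSalive (-7.13, -7.50 to -6.79), and Fabp4 4.38 and 0.0278 CPM (-7.30, -8.52 to -6.30). Fabp4 is also in the adipocyte marker list, and the endothelial markers moved with it, with 3 of 3 lower in OSalive, a median of -7.59 and 9.51 against 0.658 CPM in sum. Their part in the Fabp4 value was not tested. Slc27a1, a fatty acid transporter, was at 39.05 against 31.3 CPM (0.32) and reached 181 CPM on plate 5. Cd36 was highest in LOS at 120 CPM, the sort with the endothelial and adipocyte markers, and had 5.37 CPM in UOS. The lipid droplet list had 3 of 11 lower, again near the 26.6% of all genes, and 0 higher. Hilpda, which inhibits triglyceride lipase and is also in the hypoxia list, was at -4.38 (2.97 against 0.143 CPM), Dgat1 at -1.51, Abhd5 at -0.68 and Fitm2 at 0.22.

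In the lipoprotein lipase and ANGPTL family 1 of 7 was lower, Angptl4 itself, and 0 higher. Angptl7 went another way than Angptl4, with 68.4 CPM in UOS, 112.2 in OSalive (0.71, 0.67 to 0.76), 87.5 in OSapop and 0 to 1.33 CPM on the CatVI plates, and Angptl6 was at 0.82 (-0.06 to 1.82). Pyruvate dehydrogenase and its kinases had 2 of 11 lower and 0 higher. Pdk2 was at 0.99 (29.1 against 14.6 CPM), Pdha1 at -0.41 and Dld at -1.17, so Pdk4 was the member of the kinase family at 0 in CatVII.

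Fatty acid synthesis and desaturation had 6 of 16 genes lower and 1 higher, with Fasn at 0.32 (63.2 against 50.5 CPM), Scd2 at -1.02, Elovl4 at -2.97 and Mlxipl at 2.85, with only 6 counts in UOS. Hypoxia-inducible genes had 5 of 13 lower (26.6% of all genes) and 0 higher, with Ldha at 0.29, Ndrg1 at 0.79 and Ddit4 at -2.95. Glucocorticoid-inducible genes had 4 of 12 lower and 0 higher in OSalive, with Dusp1 at 0.94, Sgk1 at -1.51 and Mt2 at -1.63, and 8 of 12 lower in the CatVI plates (24.9% of all genes). Angptl4 is itself known to respond to both signals, and their part in the Angptl4 values was not tested.

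**Figure D5:**
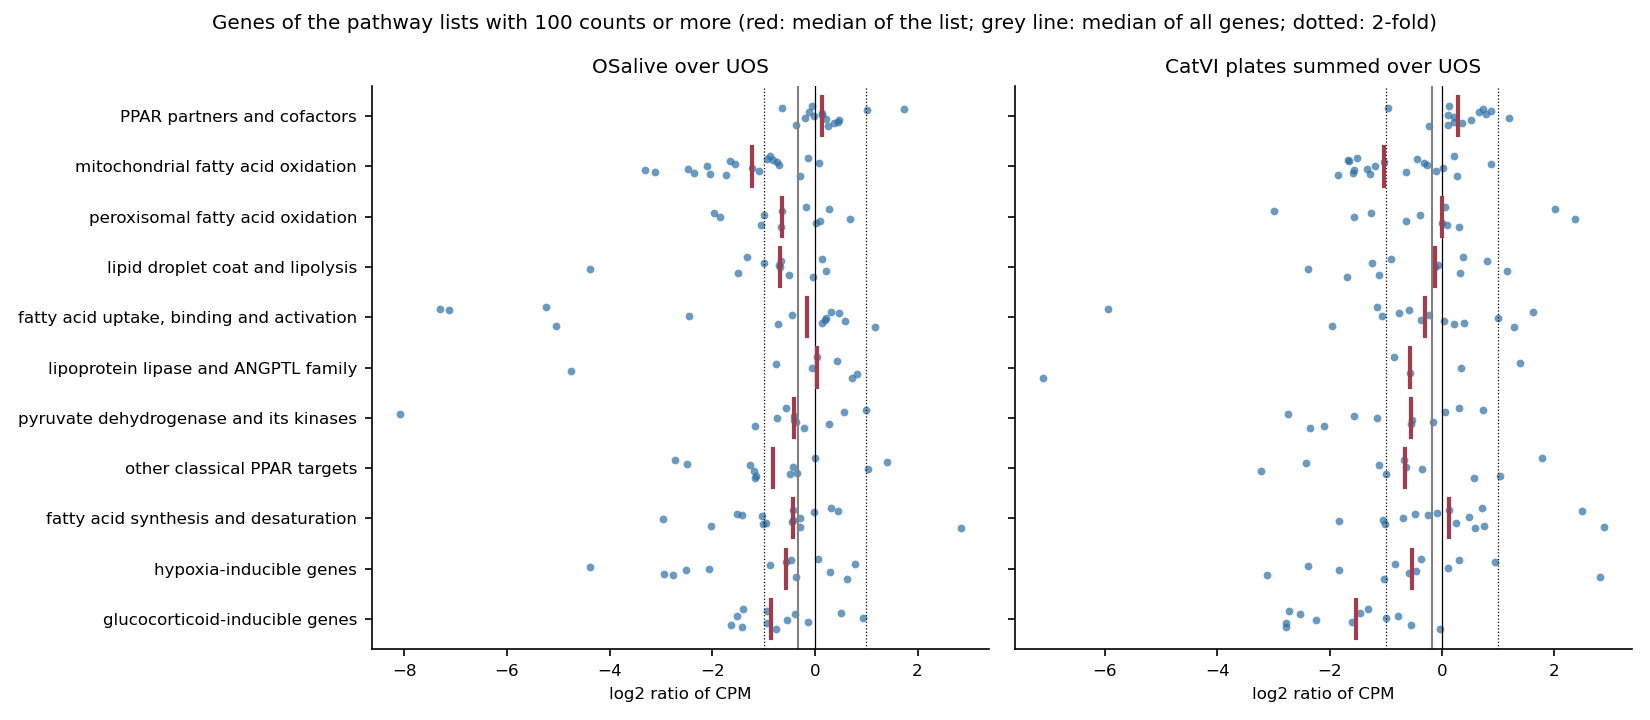
Log2 ratio of CPM of each gene with 100 counts or more in the 11 pathway lists, for OSalive over UOS (left) and the CatVI plates summed over UOS (right), with each list's median in red, the median of all genes in grey and 2-fold dotted. Mitochondrial fatty acid oxidation has a median of -1.23 on the left and -1.03 on the right, and PPAR partners and cofactors 0.14 and 0.29.

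Over the 9 sorts and plates, which share libraries and depth within each sample, the members' log2(CPM + 1) patterns were compared by Pearson's r as a description. Angptl4 was most like Pdk4 (0.86) and Plin2 (0.77) and unlike Ppard (-0.02), Ppara (-0.02) and Cpt1a (0.15). Ppard was most like Acadvl among the members (0.65). Of 7156 genes compared, those most like Angptl4 were Mrpl9 (r 0.96), Gtf2b (0.96), Tm2d2 (0.94), Siva1 (0.93) and Smu1 (0.93). Their range was narrower, as Mrpl9 had 9.45 CPM in UOS and 2.12 in OSalive. Most like Pdk4 were Anapc7, Txnip and Sema3f (0.95 each), most like Plin2 were Ramac (0.94), Smu1 (0.92) and Adck5 (0.92), and most like Ppard were Skp1 (0.96), Tnfrsf1a (0.95) and Gm38431 (0.95). Genes like Cpt1a were Gja1 (0.96) and Map7 (0.96), and Acadvl was most like Ndufs4 (0.99), Mrpl30 (0.96) and Sf3a3 (0.96). Ppara was most like Sbk1 (0.91), Ipp (0.89) and Alg2 (0.88). With 9 points and 7156 genes, high values of r are found for any pattern, and nothing is said of shared control.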

How the data were processed

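The authors pooled cells of 3 to 6 mice at each stage before the sort, made Smart-seq2 libraries and, per the labels and the methods, aligned reads with STAR 2.6 to mm39 (the same assembly as GRCm39) and estimated counts with Salmon 1.4.0, summed per gene. The deposited table holds estimated counts for 55335 genes and 92 ERCC spike-ins, not normalized. Of 1037 labelled cells, 1 had no column and 1 carried conflicting stage labels and was left out of every group. Estimated counts were rounded (0.471% were not whole). Of the identifiers 93.3% were found in the annotation used here. A single identifier outside it, ENSMUSG00000106106, took 56.3 to 66.5% of the gene counts of a sort. Summed gene counts ran from 1840012 (plate 6) to 287377663 (OSalive). Within a sort 161 well names were used by 2 cells. Both cells passed the gene minimum in 100 of these pairs, and 0 of those 100 had identical counts. Differing counts do not show that a pair is 2 distinct cells.

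Counts of cells with 2000 or more detected genes were summed per sort, divided by the summed gene counts and multiplied by 1000000 (CPM). Ratios needed 100 counts over both groups, a 0 against counts was set to 3 counts per group, and 2-fold or more (log2 of 1 or more either way) was the mark for a difference. Limits are exact: Poisson for levels, binomial for ratios, Clopper-Pearson for shares. No test was possible with 1 sample per group. Code was tested on simulated data. The genes named are the 8 members; from each pathway list the 2 with the highest CPM in any sort and the 2 with the largest ratio of OSalive to UOS; and for each member with 100 counts the 3 most alike genes (5 for Angptl4) over 9 sorts, among genes with a count in 75 cells and 10 CPM in a sort. Pecam1, Adipoq and other markers come from the marker lists, and Krt79 and Fabp4 were named as markers after their values were seen. A few genes that this rule names are not reported here. Members and lists were chosen with earlier results of these data known. Alternatives were 5 other scalings (edgeR 4.0.16 TMM, median of ratios, annotated genes, without ENSMUSG00000106106, ERCC), means over cells, thinning to 50000 counts, minima of 1000 and 3000 genes, no count minimum, leaving out each gene's highest cell or each CatVI plate, MOS for UOS, adding the unassigned cell, and, added after seeing the data, keratin cells only, with or without those holding an inner root sheath marker. Python 3.11.15, NumPy 2.4.6, SciPy 1.17.1 and R 4.3.3 were used.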

Additional observations from a re-analysis of the deposited data

Results flagged for a closer look

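In 2 genes the apop sort differed from the alive sort in opposite directions at the 2 catagen stages, with both counting intervals clear of 0. The difference between the stages was not tested, because each sort or plate is 1 sample. Angptl4 was 0.57 higher on the log2 scale in OSapop than in OSalive (2.53 against 1.71 CPM). On the CatVI Phago apop plate against the Phago alive plates it was at -6.36 (0 against 424 counts, the 0 set to 3). With cells thinned to 50000 counts the CatVII value was 0.03. Cpt1a was at -0.19 in CatVII (21.7 against 24.9 CPM) and at 0.69 in CatVI (67.4 against 41.8 CPM). Its CatVII value came to 0.33 as a mean over cells and 0.23 with thinned cells, and to 0.11 per ERCC count, so its direction there depends on the processing.

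The cell with conflicting stage labels, which enters no comparison, had 7 counts of Ppard among 52544 gene counts, above the 3 counts set for a 0, and 0 counts of Angptl4.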

How the results depend on the processing

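No paired analysis was possible because each sort or plate is 1 sample and no result comes from a test. Of 468 recomputed member ratios, 57.9% stayed within the counting interval and 41.7% moved outside it. The remaining 2, both past 2-fold in the main analysis, changed sign. Ppara in the CatVI plates over UOS was -0.43 without Phago alive plate 1, and Ppard there was 0.21 per ERCC count. Ratios under 2-fold that changed sign were not classed as reversed. Examples are Angptl4 in CatVI over UOS (-0.57, but 0.69 per ERCC count) and Plin2 in LOS over UOS (0.21, but -1.57 without inner root sheath markers). Scalings shifted every OSalive over UOS ratio by 0.11 to 0.59, and the ERCC scaling shifted CatVI and LOS over UOS by 1.27 and 1.14; the cause was not tested. Of 85 recomputed counts of members past 2-fold, 69 stayed within 1.5 times. Shares over all genes are not given for the recomputed counts. The CatVI count of 4 became 2 with thinned cells. The MOS count of 1 became 2 as a mean over cells, with thinned cells, with no count minimum, without each gene's highest cell and in keratin cells without inner root sheath markers, and 0 in all keratin cells. The LOS count of 0 became 5 per ERCC count, 1 with thinned cells, 1 without the highest cell, 4 in keratin cells and 3 in those without inner root sheath markers. The Phago apop plate's count of 2 became 1 as a mean over cells, with thinned cells and in keratin cells, and 4 with no count minimum, by construction since more genes entered.

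Angptl4 in OSalive over UOS stayed between -5.96 (MOS for UOS) and -4.15 (per ERCC count), and the Pdk4 bound between -8.81 and -1.90, the latter with thinned cells, where few counts were left. Acadvl there was -0.92 with MOS for UOS, Cpt1a reached -1.14 with thinned cells, and Ppara reached 2.16 with thinned cells. Depth limits Ppara, Pparg and Pdk4 in particular: on the CatVI plates a count of 0 allows 0.547 to 1.63 CPM.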
